A study of Arabidopsis thaliana with 28 samples.

Results

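Expression of the UDP-glycosyltransferases (UGTs) of Arabidopsis thaliana was followed on 45 probe sets of the ATH1 microarray, out of 22810 on the array. They were all the probe sets that the platform annotation pairs with exactly 1 gene and whose gene symbol is UGT followed by a number, with UGT76E1 and UGT76E2 left out. The rule uses gene names and no signal. Another 3 UGT probe sets, which the annotation pairs with several genes, were left out. The 45 genes carry 11 UGT group numbers: group 71 has 9 members, group 73 has 7, group 76 has 6, groups 84 and 85 have 5 each, group 72 has 4, groups 74 and 78 have 3 each, and groups 80, 87 and 88 have 1 each. All plants were accession Col-0, grown on Murashige and Skoog medium in 16 h days and punctured with pins on day 16, 3 h after the lights came on. Shoots and roots were collected 0.25, 0.5, 1, 3, 6, 12 and 24 h later, and each of the 14 groups had 2 arrays, 28 in all. Unwounded plants were not analysed here. Each time was therefore set against 24 h in the same tissue, the hour of day at which the treatment had begun, and for 3, 6 and 12 h the hour of day and the hours since wounding cannot be told apart. Which organ was punctured is not stated in the labels. Nor are the 2 arrays of a group said to stem from separate plant cultures, so p-values reflect the spread between arrays, which may be technical.

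UGTs move a sugar, most often glucose, from a UDP-sugar to small molecules. Their acceptors in plants include hormones, flavonoids, lignin precursors, sterols and foreign compounds, and the sugar usually makes the acceptor more soluble and changes its activity or where it is stored. The number that follows UGT in a gene name marks a group of enzymes of similar sequence, and acceptors are often, though not always, shared within a group. Several Arabidopsis UGT genes lie side by side in clusters: 24 of the 45 members have another UGT gene as a direct neighbour in the TAIR10.1 RefSeq table.

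The tissue labels were checked against their markers. All 5 photosynthesis genes used as shoot markers (PRK, RCA, LHCB4.1, LHCB4.2 and SBPASE) were higher in shoots and all 4 root markers (PYK10, EXPA7, EXPA18 and LBD16) were lower there. The summed shoot markers lay between 17979 and 28654 in shoots, against 223 to 591 in roots. The summed root markers lay between 617 and 1968 in shoots, against 2994 to 4184 in roots, and PYK10 made up most of that sum in both tissues. On the shoot arrays this root marker sum was 617 and 653 at 0.25 h, against 1560 and 1679 at 24 h. The 3-prime to 5-prime ratio of the actin control, a measure of RNA integrity, was 2.22 to 3.68 on the 12 shoot arrays of the earlier times, all below the 4.15 and 6.17 at 24 h. The root marker sum was below both 24 h values at 0.25, 0.5, 1 and 3 h, while at 6 h (1416 and 1614) and 12 h (1440 and 1968) it overlapped them. The part of either in the shoot results was not tested. Signals are in arbitrary units, and log2 changes are differences on the log2(signal + 10.7) scale, which understates changes of weak genes. A probe set was called at an adjusted p under 0.05 in limma's moderated test.

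Of the 45 members, 37 passed the filter on weak signals, which asked for a signal above the 40th percentile of the array (21.4 to 29.0) on both arrays of at least 1 group. The other 8 stayed below that percentile in all 14 groups, with signals of 0.234 to 27.8. They were UGT71B5, UGT71B6, UGT71B8, UGT73C2, UGT73C7, UGT78D3, UGT84B1 and UGT84B2. UGT71B6 is known to glucosylate abscisic acid, UGT84B1 auxin, and UGT78D3 to add arabinose to flavonols. Another 7 members were below the percentile in all 7 shoot groups and 7 in all 7 root groups, and they passed only through the other tissue. All counts below are of the 37, and a member that passed through a group where it is high is by that fact likely to differ from the groups where it is low.

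Most of these genes differed between the tissues. Between shoots and roots 33 of the 37 members differed, 14 higher and 19 lower in shoots, against 88.2% of all 16261 probe sets tested (31.3% higher and 56.9% lower in shoots). The share of members called was thus near that of all probe sets. At least 2-fold differences were found for 8 members higher and 13 lower in shoots. The arrays of the tissues did not overlap for 6 members that were higher and 12 that were lower in shoots. Neither count was taken over all probe sets, so both describe the members alone. Both counts, and that of the 33, include members that passed the filter through a single tissue. The median difference (log2, shoots minus roots) was -0.32 over the members and -0.27 over all probe sets. In these whole organs, fewer cells of a type and less RNA per cell cannot be told apart.

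Of the genes higher in shoots, UGT88A1 had the largest fitted difference, with signals of 439 to 1192 with a median of 751 on the 14 shoot arrays, against 25.8 to 92.9 with a median of 58.0 on the 14 root arrays. No shoot array reached down to the highest root array, and the log2 difference was 3.52 ± 0.08 (SE, adjusted p = 5.03e-21). UGT76E11 spanned 28.7 to 184 with a median of 106 in shoots, against 0.495 to 5.82 with a median of 3.501 in roots, where it stayed below the 40th percentile at every time. The fitted difference was 2.95 ± 0.09 (SE, adjusted p = 1.18e-18), a size that depends on the offset because the root side is so weak. UGT78D1, which adds rhamnose to flavonols at the 3 position, had 95.5 to 286 with a median of 142 in shoots, against 15.9 to 55.7 with a median of 27.1 in roots. UGT84A3, of the enzymes that make glucose esters of hydroxycinnamic acids such as sinapate, had 21.0 to 120.5 with a median of 72.7 in shoots, against 3.88 to 11.2 with a median of 9.13 in roots. UGT71B1 had 52.8 to 234 with a median of 91.4 in shoots, against 11.99 to 31.3 with a median of 20.2 in roots. None of these 3 had overlapping arrays, and their log2 differences were 2.09 ± 0.07 (SE, adjusted p = 1.91e-17), 1.84 ± 0.07 (SE, adjusted p = 9.50e-17) and 1.81 ± 0.08 (SE, adjusted p = 3.54e-15). UGT76E11 and UGT84A3 passed the filter only through shoots, so their calls and lack of overlap followed in part from the filter.

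Among the genes lower in shoots the fitted differences were wide, and several genes had weak signals there. UGT71C1, UGT72E3 and UGT73D1 were below the 40th percentile in all 7 shoot groups and UGT76B1 and UGT73B4 in 6 of 7, so the sizes and the order of their differences depend on the offset. UGT71C1, UGT72E3 and UGT73D1 passed the filter only through roots, so their calls and lack of overlap followed in part from the filter. UGT76B1, whose product conjugates isoleucic acid, salicylate and N-hydroxypipecolate, spanned 0.736 to 32.9 with a median of 7.74 in shoots, against 374 to 631 with a median of 491 in roots, a log2 difference of -4.78 ± 0.08 (SE, adjusted p = 5.48e-23). UGT72E2, which glucosylates the monolignol alcohols that build lignin, spanned 22.6 to 52.3 with a median of 32.3 in shoots, against 550.0 to 1129 with a median of 690.3 in roots, a difference of -4.03 ± 0.08 (SE, adjusted p = 1.41e-22). Its relatives UGT72E1, which acts on the matching aldehydes, and UGT72E3 were also lower in shoots, with log2 differences of -2.30 ± 0.06 (SE, adjusted p = 5.82e-20) and -1.99 ± 0.08 (SE, adjusted p = 2.76e-16). UGT71C1 had 0.605 to 7.74 with a median of 1.75 in shoots, against 91.0 to 193 with a median of 135 in roots. UGT73D1 had 1.55 to 12.3 with a median of 6.92 in shoots, against 79.9 to 231 with a median of 166 in roots. UGT73B4, known for glucosylating breakdown products of the explosive TNT, had 0.848 to 24.5 with a median of 11.3 in shoots, against 80.1 to 145 with a median of 124 in roots. Shoot and root arrays did not overlap for any of these genes, and the last 3 differed by -3.48 ± 0.07 (SE, adjusted p = 2.49e-22), -3.30 ± 0.10 (SE, adjusted p = 7.78e-19) and -2.70 ± 0.12 (SE, adjusted p = 1.38e-14). UGT74D1, UGT76C2, UGT78D2 and UGT85A7 were not called between the tissues, with log2 differences of -0.04 ± 0.06, -0.01 ± 0.06, 0.08 ± 0.05 and -0.23 ± 0.11 (SE). 

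**Figure D1:**
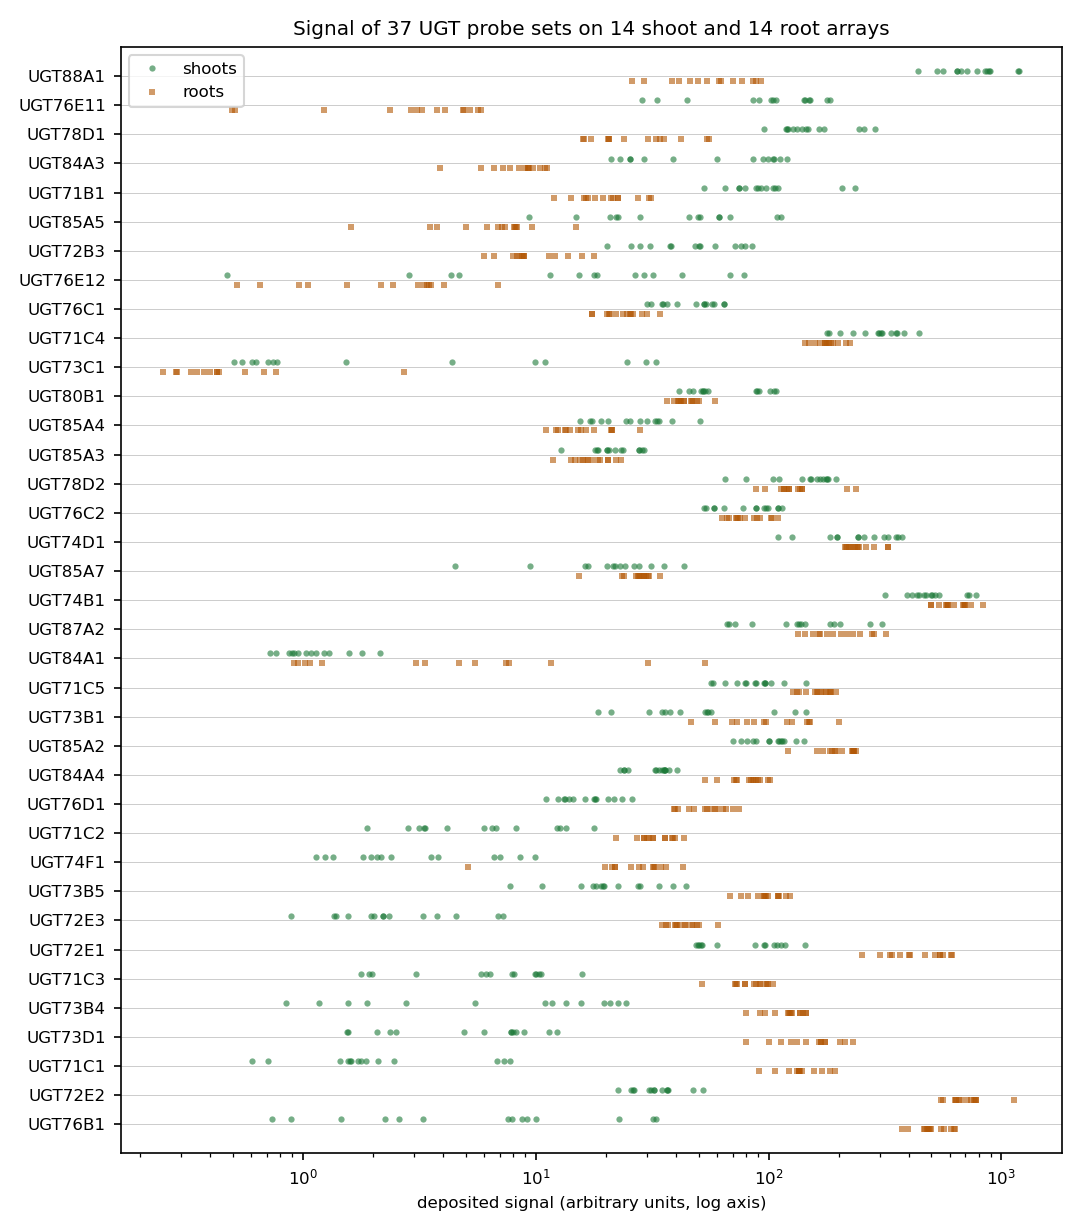
Deposited signal (arbitrary units, log axis) of the 37 UGT probe sets that passed the filter, with a point for each of 14 shoot arrays (green circles) and 14 root arrays (orange squares), ordered by the log2 difference between the tissues. UGT88A1, at the top, has a median of 751 in shoots and 58.0 in roots, and UGT76B1, at the bottom, has 7.74 in shoots and 491 in roots.

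Over time the shoots moved more than the roots. The F-test over the 7 times was passed by 27 of 37 members in shoots, against 61.5% of all probe sets, and by 6 of 37 in roots, against 14.8%. The range between the highest and lowest group mean had a median of 1.03 (log2) in shoots and 0.52 in roots and was wider in shoots for 30 of the 37. Of the 27 courses in shoots 21 spanned at least 2-fold, and of the 6 in roots 5 did. These ranges were not computed over all probe sets, whose F-test share was also larger in shoots, so they describe the members alone. UGT78D1, UGT78D2, UGT72E1 and UGT88A1 passed the F-test in both tissues, and 8 members passed it in neither. The highest shoot mean fell at 12 h for 8 of the 27, at 1 h for 7, at 6 h for 5, at 3 h and 24 h for 3 each and at 0.5 h for 1. The lowest fell at 0.5 h for 9, at 1 h for 6, at 0.25 h for 4, at 6 h and 24 h for 3 each and at 12 h for 2. Leaving out each of the 28 arrays in turn gave 26 to 28 members past the F-test in shoots and 5 to 9 in roots, where 5 of the 6 held in every such fit, as did 24 of the 27 in shoots.

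Against 24 h, 8 members were called in shoots at 0.25 h, all lower, beside 24.4% of all probe sets (9.94% higher and 14.4% lower). At 0.5 h it was 11 (1 higher and 10 lower) beside 25.9% (11.0% and 14.9%), and at 1 h 12 (6 and 6) beside 32.9% (14.5% and 18.4%). At 3 h it was 6 (4 higher and 2 lower) beside 21.7% (11.4% and 10.2%), and at 6 h 14 (8 and 6) beside 23.1% (13.0% and 10.0%). At 12 h it was 15 (10 higher and 5 lower) beside 19.7% (10.3% and 9.40%). After quantile normalization the 0.25 h calls were 2 higher and 7 lower. The median change of the members was -0.18, -0.32, -0.03, 0.07, 0.06 and 0.23 at the 6 times, beside -0.09, -0.07, -0.06, -0.01, 0.05 and 0.00 over all probe sets. All these comparisons share the same 24 h arrays. With 0.25 h in place of 24 h, 0 members were called at 0.5 h in limma's test, with 5 at an unadjusted p under 0.05, and 12 at 3 h (11 higher and 1 lower). With that reference 12 were called at 1 h (9 higher and 3 lower), 13 at 6 h (10 and 3) and 16 at 12 h (15 and 1). The balance of higher and lower calls among the members thus depended on the reference. With the mean of 3, 6 and 12 h in place of 24 h, a setting added after the data were seen, 16 were called at 0.25 h (2 higher and 14 lower) and 19 at 0.5 h (3 higher and 16 lower). The F-test without the 24 h arrays was passed by 28 members in shoots. The counts with another reference or without the 24 h arrays were not taken over all probe sets, so they describe the members alone.

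In all 72 calls against 24 h, 66 in shoots and 6 in roots, the 2 arrays of the time lay on the same side of both 24 h arrays. With 2 arrays on each side a call makes this likely, so it is no added support. A change of at least 2-fold was reached in 19 of the shoot calls and 2 of the root calls, which was not counted over all probe sets. In 5 calls (UGT71C1 at 0.25, 1, 6 and 12 h and UGT76B1 at 6 h in shoots) both sides lay below the 40th percentile, and in 13 others 1 side did. With another reference than 24 h the sign turned in 9 shoot calls: those of UGT71C1 at 1, 6 and 12 h, UGT78D1 at 0.5 and 3 h, UGT72B3 at 0.5 h and UGT71C4 at 12 h with 0.25 h, and those of UGT74D1 at 0.25 h and UGT88A1 at 0.5 h with the mean of 3, 6 and 12 h. With 0.25 h as reference 24 other calls were lost and 33 held. With the mean of 3, 6 and 12 h 10 others were lost and 19 held. Many calls rest on single arrays. Those that held whichever of their 4 arrays was left out were 2 of 8 in shoots at 0.25 h, 6 of 11 at 0.5 h, 7 of 12 at 1 h, 2 of 6 at 3 h, 8 of 14 at 6 h and 7 of 15 at 12 h. Without replicate 1 of the time itself the count of members fell to 5 at 0.25 h, 7 at 0.5 h and 8 at 12 h. Without replicate 2 it was 3 at 3 h, 8 at 6 h and 9 at 12 h, and without replicate 2 of 24 h it was 9 at 12 h.

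**Figure D2:**
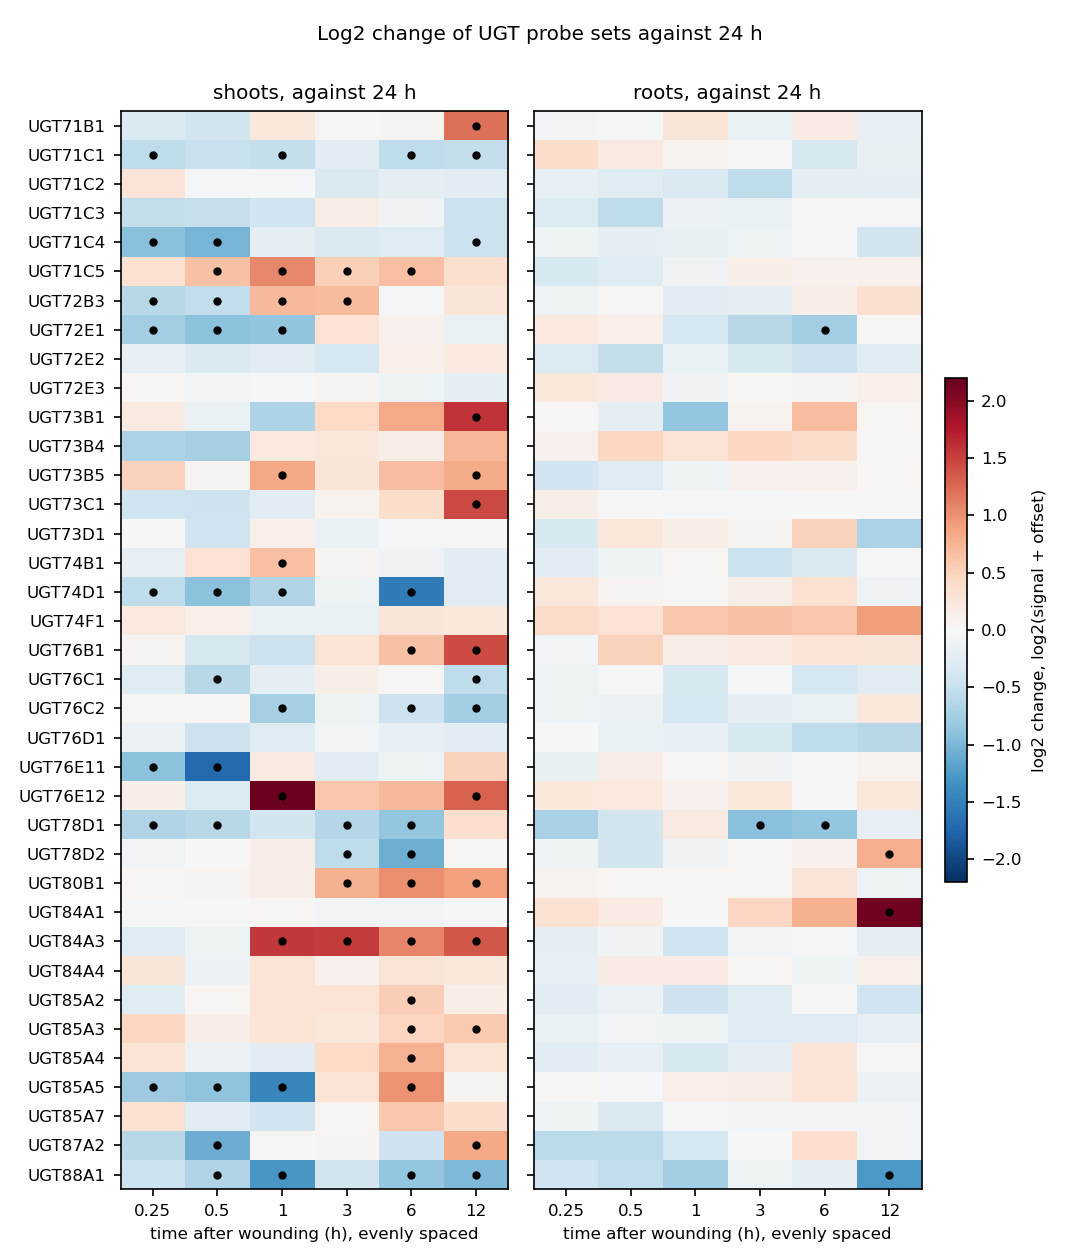
Log2 change against 24 h in the same tissue (colour, on the log2(signal + 10.7) scale) of the 37 UGT probe sets, in order of group number, at 6 times in shoots (left) and roots (right), with a dot on each call. Shoots hold 66 dots and roots 6.

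Group 71 had 9 members, of which 6 passed the filter, and 4 of these passed the F-test over time in shoots and none in roots. UGT71C3, UGT71C4 and UGT71C5 are direct neighbours, yet their probe sets ran differently. UGT71C5, which glucosylates abscisic acid, gave signals of 87.2 and 64.9 at 0.25 h, 103 and 88.3 at 0.5 h, 117 and 144 at 1 h, 79.9 and 95.3 at 3 h, 96.4 and 96.5 at 6 h, 73.0 and 78.9 at 12 h and 56.6 and 57.8 at 24 h in shoots. Every array from 0.25 to 12 h lay above both 24 h arrays, and the 1 h pair was the highest. The log2 change was 1.05 ± 0.13 (SE, adjusted p = 2.16e-06) at 1 h, 0.64 ± 0.13 (SE, adjusted p = 0.000892) at 0.5 h and 0.66 ± 0.13 (SE, adjusted p = 0.000680) at 6 h, all of which held whichever array was left out. A smaller rise at 3 h, of 0.53 ± 0.13 (SE, adjusted p = 0.00568), was lost without replicate 2 at 3 h (adjusted p = 0.0920). With 0.25 h in place of 24 h the UGT71C5 calls at 0.5, 3 and 6 h were lost (adjusted p = 0.268, 0.313 and 0.0700), while that at 1 h held. The call at 0.5 h was also lost against the mean of 3, 6 and 12 h (adjusted p = 0.390). UGT71C4 gave 182 and 230.3 at 0.25 h and 179 and 204 at 0.5 h, against 444 and 355 at 24 h. These 4 early arrays were the lowest of all 14 in shoots, and the changes were -0.92 ± 0.16 (SE, adjusted p = 0.000215) and -1.02 ± 0.16 (SE, adjusted p = 5.57e-05). A call at 12 h, with a change of -0.48 ± 0.16 (SE, adjusted p = 0.0384), was lost without replicate 1 at 12 h or replicate 1 at 24 h (adjusted p = 0.283 and 0.315), and with the arrays of the same tissue alone (adjusted p = 0.0683). With 0.25 h in place of 24 h that change turned to 0.44 (adjusted p = 0.0398). UGT71C3, which glucosylates methyl salicylate, was below the 40th percentile in every shoot group. It passed the F-test over time in shoots (adjusted p = 0.0217) and was called at no time against 24 h. That F-test was lost without replicate 2 at 3 h (adjusted p = 0.0896) and with the arrays of the same tissue alone (adjusted p = 0.115). In roots UGT71C3, UGT71C4 and UGT71C5 were called at no time, with changes between -0.55 and 0.12 on the log2 scale.

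UGT71B1, also of group 71, gave 234 and 208 in shoots at 12 h, against 107 and 74.7 at 24 h. Both 12 h arrays stood above the other 12 shoot arrays, which ended at 109.7, and the change of 1.21 ± 0.22 (SE, adjusted p = 0.000455) held in each fit with an array left out. UGT71C1 was called lower at 0.25, 1, 6 and 12 h in shoots, but with signals between 0.605 and 7.74. Each of these 4 calls was lost whichever of its 4 arrays was left out, with adjusted p-values of 0.0528 to 0.118 at 0.25 h, 0.0761 to 0.116 at 1 h, 0.0543 to 0.170 at 6 h and 0.104 to 0.171 at 12 h. UGT71C2, the neighbour of UGT71C1, was called at no time in either tissue and was also lower in shoots, with 1.89 to 17.9 with a median of 6.25 in shoots, against 22.1 to 43.2 with a median of 31.9 in roots.

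In group 72 all 4 members passed the filter, and UGT72B3 and UGT72E1 passed the F-test over time in shoots. UGT72E1 gave 51.5 and 59.9 at 0.25 h, 48.5 and 50.2 at 0.5 h, 50.0 and 52.0 at 1 h, 118 and 144 at 3 h, 113 and 106 at 6 h, 95.4 and 87.8 at 12 h and 108 and 96.5 at 24 h in shoots. The 6 arrays of 0.25, 0.5 and 1 h were the lowest, none above 59.9, and the other 8 were at 87.8 or more. The log2 change was -0.77 ± 0.16 (SE, adjusted p = 0.00127), -0.91 ± 0.16 (SE, adjusted p = 0.000205) and -0.87 ± 0.16 (SE, adjusted p = 0.000224) at these 3 times and held whichever array was left out. In roots the same gene gave 543 and 611 at 0.25 h, 562 and 518 at 0.5 h, 366 and 402 at 1 h, 339 and 302 at 3 h, 252 and 332 at 6 h, 543 and 471 at 12 h and 404 and 609.9 at 24 h. There the lowest mean was that of 6 h, whose arrays lay below both of 24 h, with a change of -0.76 ± 0.16 (SE, adjusted p = 0.0163). That call was lost without replicate 1 at 6 h or replicate 2 at 24 h (adjusted p = 0.208 and 0.179), and with the arrays of the same tissue alone (adjusted p = 0.0629). Its courses differed between the tissues in the F-test of the difference itself (adjusted p = 6.13e-07), the smallest p among the members. The change in shoots minus that in roots was -1.03 ± 0.23 (SE, adjusted p = 0.00408) at 0.5 h and 0.94 ± 0.23 (SE, adjusted p = 0.0121) at 3 h, of opposite sign. UGT72E2 and UGT72E3 were called at no time in either tissue, their largest changes being -0.52 (roots, 0.5 h) and 0.23 (roots, 0.25 h).

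UGT72B3 turned over time in shoots: it gave 20.1 and 30.9 at 0.25 h, 25.5 and 28.0 at 0.5 h, 85.0 and 72.0 at 1 h and 79.0 and 75.9 at 3 h, against 38.0 and 50.4 at 24 h. The 4 arrays of 0.25 and 0.5 h were the lowest and the 4 of 1 and 3 h the highest in shoots. Against 24 h the log2 change was -0.61 ± 0.18 (SE, adjusted p = 0.0178) at 0.25 h, -0.54 ± 0.18 (SE, adjusted p = 0.0309) at 0.5 h, 0.71 ± 0.18 (SE, adjusted p = 0.00474) at 1 h and 0.69 ± 0.18 (SE, adjusted p = 0.00870) at 3 h. The UGT72B3 call at 0.25 h was lost without replicate 1 at 0.25 h or replicate 2 at 24 h (adjusted p = 0.217 and 0.148), and on the log2(signal + 1) scale (adjusted p = 0.0513). The UGT72B3 call at 0.5 h was lost without replicate 1 or 2 at 0.5 h or replicate 2 at 24 h (adjusted p = 0.151, 0.0804 and 0.215), and on the log2(signal + 1) scale (adjusted p = 0.0840). The UGT72B3 call at 1 h was lost without replicate 1 at 1 h or replicate 1 at 24 h (adjusted p = 0.0535 and 0.0775). The UGT72B3 call at 3 h was lost without replicate 1 at 3 h or replicate 1 at 24 h (adjusted p = 0.0572 and 0.113). The F-test over all 7 shoot times gave adjusted p = 3.15e-06 and held whichever array was left out. In roots it was below the 40th percentile at every time.

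Group 73 had 5 members past the filter, and at 12 h UGT73B1, UGT73B5 and UGT73C1 were called higher in shoots. UGT73B1 gave 53.5 and 37.6 at 0.25 h, 30.5 and 36.0 at 0.5 h, 21.0 and 18.5 at 1 h, 56.7 and 54.8 at 3 h, 54.4 and 105 at 6 h, 144 and 129.7 at 12 h and 41.7 and 34.7 at 24 h in shoots. The 12 h arrays were the highest and the 1 h arrays the lowest. At 12 h the change was 1.60 ± 0.32 (SE, adjusted p = 0.00125) and held whichever array was left out, and no other time was called. UGT73C1, which can glucosylate cytokinins at their side-chain oxygen, gave 29.7 and 33.0 at 12 h, against 9.96 and 0.777 at 24 h. Apart from 24.6 on replicate 2 at 6 h, no other shoot array passed 10.9. The change of 1.45 ± 0.35 (SE, adjusted p = 0.00514) was lost without replicate 2 at 24 h (adjusted p = 0.0885), and on the log2(signal + 1) scale (adjusted p = 0.0631). UGT73C1 passed the filter only through shoots at 12 h, so this call followed in part from the filter. UGT73B5, linked to redox and pathogen responses, gave 22.6 and 44.0 at 1 h and 33.7 and 28.1 at 12 h, against 19.4 and 7.79 at 24 h, with no other shoot array above 38.7. Its changes were 0.85 ± 0.25 (SE, adjusted p = 0.0130) and 0.81 ± 0.25 (SE, adjusted p = 0.0268). The UGT73B5 call at 1 h was lost without replicate 2 at 1 h or replicate 2 at 24 h (adjusted p = 0.225 and 0.198), and with the arrays of the same tissue alone (adjusted p = 0.0508). The UGT73B5 call at 12 h was lost without replicate 1 or 2 at 12 h or replicate 2 at 24 h (adjusted p = 0.167, 0.0625 and 0.284), and with the arrays of the same tissue alone (adjusted p = 0.0890). With those arrays alone its F-test over time in shoots was lost as well (adjusted p = 0.103). With 0.25 h in place of 24 h the UGT73B5 calls at 1 and 12 h were lost (adjusted p = 0.388 and 0.418). UGT73B4, its direct neighbour, passed the F-test over time in shoots (adjusted p = 0.00490) but was called at no time. Its 24 h arrays, at 22.5 and 1.56, differed by more than 2-fold, as did UGT73B5's.

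In group 74, UGT74D1, which glucosylates auxin and its oxidized form, was low in shoots at 6 h and, less so, in the first hour. It gave 243 and 241 at 0.25 h, 183 and 197 at 0.5 h, 196 and 258 at 1 h, 358 and 314 at 3 h, 109 and 126 at 6 h, 283 and 325 at 12 h and 352 and 374 at 24 h in shoots. Both 6 h arrays lay below the other 12, and the arrays of 0.25, 0.5 and 1 h lay below both of 24 h. The log2 change was -0.90 ± 0.16 (SE, adjusted p = 0.000215) at 0.5 h and -1.55 ± 0.16 (SE, adjusted p = 1.34e-07) at 6 h, and both held whichever array was left out. The UGT74D1 call at 0.25 h was lost without replicate 2 at 24 h (adjusted p = 0.0614). The UGT74D1 call at 1 h was lost without replicate 1 at 1 h (adjusted p = 0.0645). With the mean of 3, 6 and 12 h in place of 24 h, UGT74D1 was not called at 0.25, 0.5 or 1 h (adjusted p = 0.708, 0.126 and 0.879). In roots UGT74D1 gave 324 and 262 at 6 h, against 246 and 212 at 24 h, and was called at no time. The shoot change minus the root change was -1.88 ± 0.22 (SE, adjusted p = 4.94e-06) at 6 h. UGT74B1, which adds the sulfur-linked glucose of glucosinolates, gave 727 and 780.4 in shoots at 1 h, against 444 and 505 at 24 h, a change of 0.66 ± 0.19 (SE, adjusted p = 0.00978). The UGT74B1 call at 1 h was lost without replicate 2 at 1 h or replicate 1 at 24 h (adjusted p = 0.0664 and 0.0853). UGT74F1, which glucosylates salicylate, was below the 40th percentile in every shoot group. In roots it had 5.12 to 42.7 with a median of 28.4, its lowest value being that of replicate 1 at 24 h, and it was called at no time.

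Group 76 held 3 of the 8 widest courses in shoots, those of UGT76E12, UGT76E11 and UGT76B1. UGT76E12 gave 0.470 and 26.6 at 0.25 h, 4.33 and 4.70 at 0.5 h, 68.2 and 78.5 at 1 h, 18.3 and 17.7 at 3 h, 11.5 and 31.8 at 6 h, 29.2 and 42.5 at 12 h and 15.3 and 2.85 at 24 h in shoots. Its 1 h arrays stood above all others, while at 0.25, 6 and 24 h the replicates differed by more than 2-fold. The change was 2.16 ± 0.39 (SE, adjusted p = 0.000274) at 1 h, and it held whichever array was left out. UGT76E12 passed the filter only through shoots at 1 and 12 h, so its calls there followed in part from the filter. A rise of 1.29 ± 0.39 (SE, adjusted p = 0.0249) at 12 h was lost without replicate 1 or 2 at 12 h or replicate 2 at 24 h (adjusted p = 0.0548, 0.158 and 0.230), and on the log2(signal + 1) scale or with the arrays of the same tissue alone (adjusted p = 0.128 and 0.110). UGT76E11 gave 44.7 and 85.4 at 0.25 h, 28.7 and 33.0 at 0.5 h, 149 and 141 at 1 h, 107 and 102 at 3 h, 90.7 and 143 at 6 h, 179 and 184 at 12 h and 150.2 and 104 at 24 h. The 0.5 h arrays were the lowest and the 12 h arrays the highest. At 0.5 h the change was -1.71 ± 0.24 (SE, adjusted p = 1.52e-05), which held whichever array was left out, and at 0.25 h it was -0.90 ± 0.24 (SE, adjusted p = 0.00925). The UGT76E11 call at 0.25 h was lost without replicate 1 at 0.25 h or replicate 1 at 24 h (adjusted p = 0.200 and 0.142), and on the log2(signal + 1) scale (adjusted p = 0.227). In roots both were below the 40th percentile at every time.

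UGT76B1 gave 2.60 and 10.0 at 0.25 h, 2.25 and 1.45 at 0.5 h, 0.736 and 0.891 at 1 h, 9.19 and 8.71 at 3 h, 7.87 and 22.9 at 6 h, 32.9 and 31.8 at 12 h and 3.26 and 7.62 at 24 h in shoots. Only the 12 h pair lay above the 40th percentile of its arrays, and it lay above every other shoot array. The change was 1.43 ± 0.22 (SE, adjusted p = 6.03e-05) at 12 h and held in each fit with an array left out, though its size depends on the offset because the 24 h side is weak. The UGT76B1 call at 6 h was lost without replicate 2 at 6 h or replicate 1 at 24 h (adjusted p = 0.578 and 0.292), and with the arrays of the same tissue alone (adjusted p = 0.129). In roots, where its signals were 374 to 631, it was called at no time, and the shoot change minus the root change at 12 h was 1.16 ± 0.31 (SE, adjusted p = 0.0174). The neighbours UGT76C1 and UGT76C2, which add glucose to the ring nitrogens of cytokinins, were both lower at 12 h. UGT76C2 gave 53.8 and 58.0 at 1 h and 58.3 and 52.9 at 12 h, against 88.5 and 114 at 24 h, changes of -0.74 ± 0.16 (SE, adjusted p = 0.000958) and -0.75 ± 0.16 (SE, adjusted p = 0.00150) that held whichever array was left out. The UGT76C2 call at 6 h was lost without replicate 1 or 2 at 6 h or replicate 2 at 24 h (adjusted p = 0.0512, 0.271 and 0.304), and with no filter (adjusted p = 0.0551). UGT76C1 gave 29.9 and 34.8 at 0.5 h and 31.2 and 36.7 at 12 h, against 53.0 and 57.1 at 24 h, changes of -0.61 ± 0.18 (SE, adjusted p = 0.0160) and -0.56 ± 0.18 (SE, adjusted p = 0.0331). The UGT76C1 call at 0.5 h was lost without replicate 1 at 0.5 h or replicate 1 or 2 at 24 h (adjusted p = 0.120, 0.0560 and 0.0712). The UGT76C1 call at 12 h was lost whichever of its 4 arrays was left out (adjusted p = 0.204, 0.0616, 0.0880 and 0.121), and with the arrays of the same tissue alone (adjusted p = 0.0558). UGT76D1, which acts on dihydroxybenzoates, was called at no time in either tissue.

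**Figure D3:**
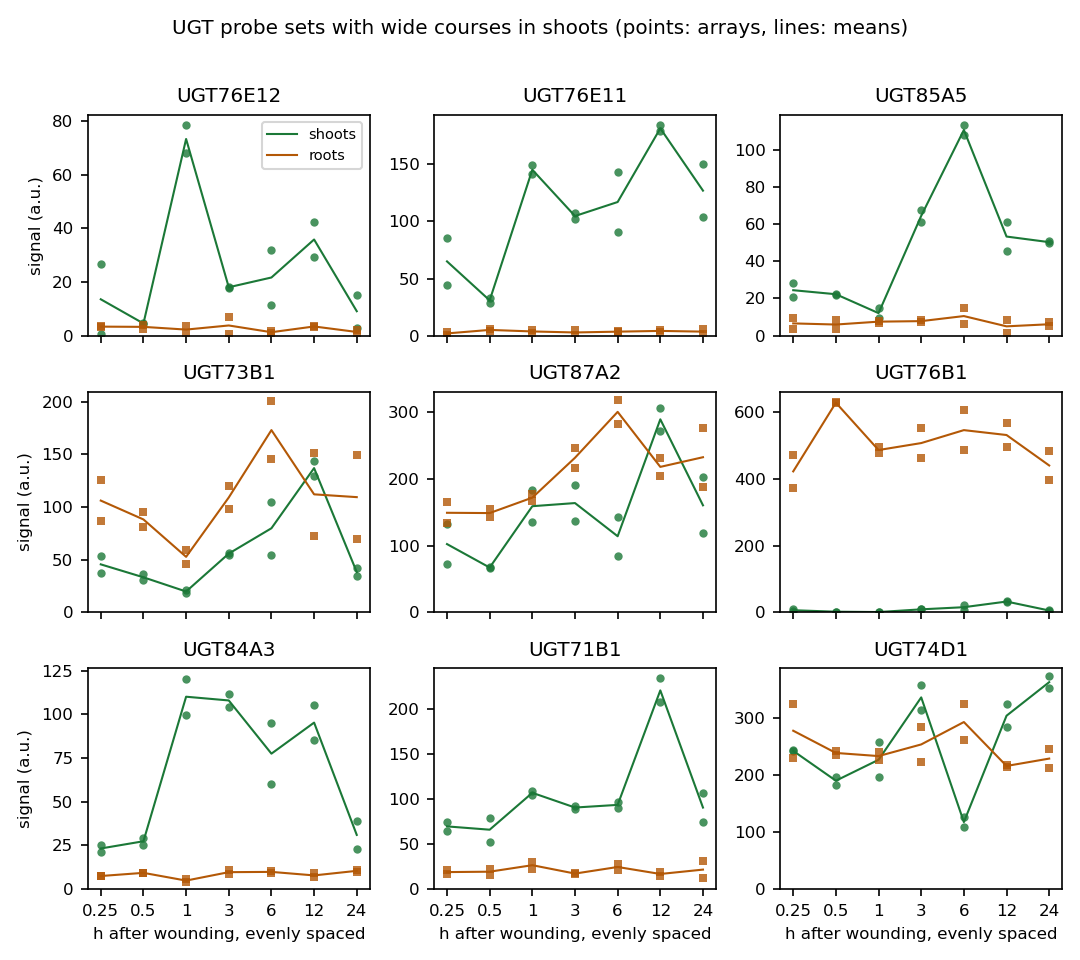
Deposited signal (arbitrary units) of 9 UGT probe sets at 7 times after wounding, with a point for each array and lines through the means of 2 arrays, in shoots (green) and roots (orange). The times are evenly spaced on the axis. UGT76E12 peaks in shoots at 1 h with 68.2 and 78.5, UGT85A5 is lowest at 1 h and highest at 6 h, and UGT71B1, UGT73B1 and UGT76B1 are highest at 12 h in shoots.

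Group 78 holds the flavonoid enzymes. UGT78D2, which glucosylates flavonols and anthocyanidins, moved in both tissues but at different times. In shoots it gave 139 and 177 at 0.25 h, 150.1 and 179 at 0.5 h, 194 and 166 at 1 h, 111 and 104 at 3 h, 79.8 and 65.2 at 6 h, 162 and 172 at 12 h and 176 and 151 at 24 h. The 6 h arrays were the lowest and those of 3 h the next, and the change was -1.07 ± 0.14 (SE, adjusted p = 3.48e-06) at 6 h, which held whichever array was left out. At 3 h the change of -0.56 ± 0.14 (SE, adjusted p = 0.00555) was lost without replicate 2 at 3 h or replicate 1 at 24 h (adjusted p = 0.0554 and 0.0724). In roots UGT78D2 gave 237 and 217 at 12 h, against 117 and 137 at 24 h. Both 12 h arrays lay above the other 12 root arrays, and the change of 0.79 ± 0.14 (SE, adjusted p = 0.000832) held whichever array was left out. The shoot change minus the root change was -1.17 ± 0.19 (SE, adjusted p = 0.000258) at 6 h and -0.76 ± 0.19 (SE, adjusted p = 0.0117) at 12 h. UGT78D1 gave 121 and 132 at 0.25 h, 118 and 148 at 0.5 h, 164 and 145 at 1 h, 139 and 120.0 at 3 h, 127 and 95.5 at 6 h, 286 and 256 at 12 h and 173 and 246 at 24 h in shoots. All arrays of 0.25 to 6 h lay below both 24 h arrays, and the 12 h arrays lay above them. The changes were -0.84 ± 0.20 (SE, adjusted p = 0.00310) at 6 h and between -0.66 and -0.60 at 0.25, 0.5 and 3 h, while 1 h was not called. The UGT78D1 call at 6 h was lost without replicate 2 at 6 h or replicate 2 at 24 h (adjusted p = 0.0647 and 0.0671), and with 0.25 h in place of 24 h (adjusted p = 0.526). At 0.25, 0.5 and 3 h the calls were lost without replicate 2 at 24 h (adjusted p = 0.197, 0.267 and 0.249), and without replicate 1 at 0.25 h, replicate 1 at 0.5 h or either array at 3 h (adjusted p = 0.0952, 0.224, 0.0526 and 0.175). On the log2(signal + 1) scale those at 0.5 and 3 h were lost too (adjusted p = 0.0549 and 0.0504). The F-test over time gave adjusted p = 0.000163 in shoots and held whichever array was left out.

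Sterol glucosyltransferase UGT80B1 of group 80 gave 52.5 and 45.4 at 0.25 h, 52.1 and 47.1 at 0.5 h, 51.3 and 55.0 at 1 h, 88.1 and 89.0 at 3 h, 106 and 107 at 6 h, 102 and 91.3 at 12 h and 41.1 and 53.2 at 24 h in shoots. The 6 arrays of 3, 6 and 12 h all lay above the other 8. The changes were 0.79 ± 0.13 (SE, adjusted p = 0.000188), 1.03 ± 0.13 (SE, adjusted p = 3.80e-06) and 0.90 ± 0.13 (SE, adjusted p = 3.32e-05) at these times and held whichever array was left out. In roots UGT80B1 was called at no time and spanned 36.6 to 58.6 with a median of 43.2. UGT87A2 of group 87, known from flowering time control, gave 72.0 and 133 at 0.25 h, 66.6 and 67.8 at 0.5 h, 136 and 183 at 1 h, 137 and 191 at 3 h, 85.3 and 143 at 6 h, 272 and 307 at 12 h and 203 and 118 at 24 h in shoots. Its 12 h arrays were the highest, while the 24 h replicates differed widely. The change was -1.09 ± 0.27 (SE, adjusted p = 0.00468) at 0.5 h and 0.85 ± 0.27 (SE, adjusted p = 0.0284) at 12 h. The UGT87A2 call at 0.5 h was lost without replicate 1 at 24 h (adjusted p = 0.112). The UGT87A2 call at 12 h was lost without replicate 1 or 2 at 12 h or replicate 2 at 24 h (adjusted p = 0.0814, 0.140 and 0.275), and with the arrays of the same tissue alone (adjusted p = 0.0888). UGT88A1 of group 88 gave 864 and 846 at 0.25 h, 787 and 714 at 0.5 h, 529 and 439 at 1 h, 886 and 897 at 3 h, 641 and 669 at 6 h, 561 and 645 at 12 h and 1181 and 1192 at 24 h in shoots. No other array reached the 24 h pair. The changes of -1.28 ± 0.21 (SE, adjusted p = 6.30e-05) at 1 h, -0.85 ± 0.21 (SE, adjusted p = 0.00475) at 6 h and -0.97 ± 0.21 (SE, adjusted p = 0.00189) at 12 h held whichever array was left out. The change at 0.5 h, of -0.66 ± 0.21 (SE, adjusted p = 0.0237), was lost whichever of its 4 arrays was left out (adjusted p = 0.0626, 0.133, 0.0986 and 0.0755), and on the log2(signal + 1) scale (adjusted p = 0.0517). With 0.25 h in place of 24 h the adjusted p was 0.179 at 6 h and 0.0768 at 12 h.

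In group 84 the 84A enzymes make hydroxycinnamate glucose esters, and the neighbours UGT84A1, UGT84A3 and UGT84A4 ran differently. UGT84A3 gave 25.4 and 21.0 at 0.25 h, 29.3 and 25.4 at 0.5 h, 120.5 and 99.6 at 1 h, 104 and 112 at 3 h, 59.99 and 95.0 at 6 h, 105 and 85.4 at 12 h and 38.9 and 23.1 at 24 h in shoots. All 8 arrays of 1, 3, 6 and 12 h lay above the other 6. The log2 changes were 1.55 ± 0.19 (SE, adjusted p = 1.61e-06) at 1 h, 1.53 ± 0.19 (SE, adjusted p = 4.68e-06) at 3 h, 1.08 ± 0.19 (SE, adjusted p = 0.000181) at 6 h and 1.37 ± 0.19 (SE, adjusted p = 1.51e-05) at 12 h, and all 4 held whichever array was left out. In roots its signals of 3.88 to 11.2 were below the 40th percentile at every time. UGT84A1 was the reverse case, with signals of 0.724 to 2.15 in shoots and a rise at 12 h in roots. There it gave 3.06 and 5.49 at 0.25 h, 0.953 and 4.68 at 0.5 h, 1.02 and 1.07 at 1 h, 3.33 and 7.65 at 3 h, 7.45 and 11.6 at 6 h, 53.2 and 30.4 at 12 h and 0.919 and 1.20 at 24 h. Only the 12 h arrays lay above the 40th percentile. The change was 2.12 ± 0.21 (SE, adjusted p = 1.22e-06) and held whichever array was left out, but its size depends on the offset. UGT84A1 passed the filter only through these 12 h arrays, so its call followed in part from the filter. The fits with an array left out used the same filter and do not test this. UGT84A4 had 22.9 to 40.3 with a median of 34.2 in shoots, against 53.2 to 101 with a median of 84.6 in roots, and was called at no time. The shoot change minus the root change was 1.59 ± 0.27 (SE, adjusted p = 0.000679) for UGT84A3 at 3 h and -2.14 ± 0.29 (SE, adjusted p = 4.53e-05) for UGT84A1 at 12 h. The probe sequences were not used here, so whether these probe sets also pick up transcripts of close relatives was not tested.

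**Figure D4:**
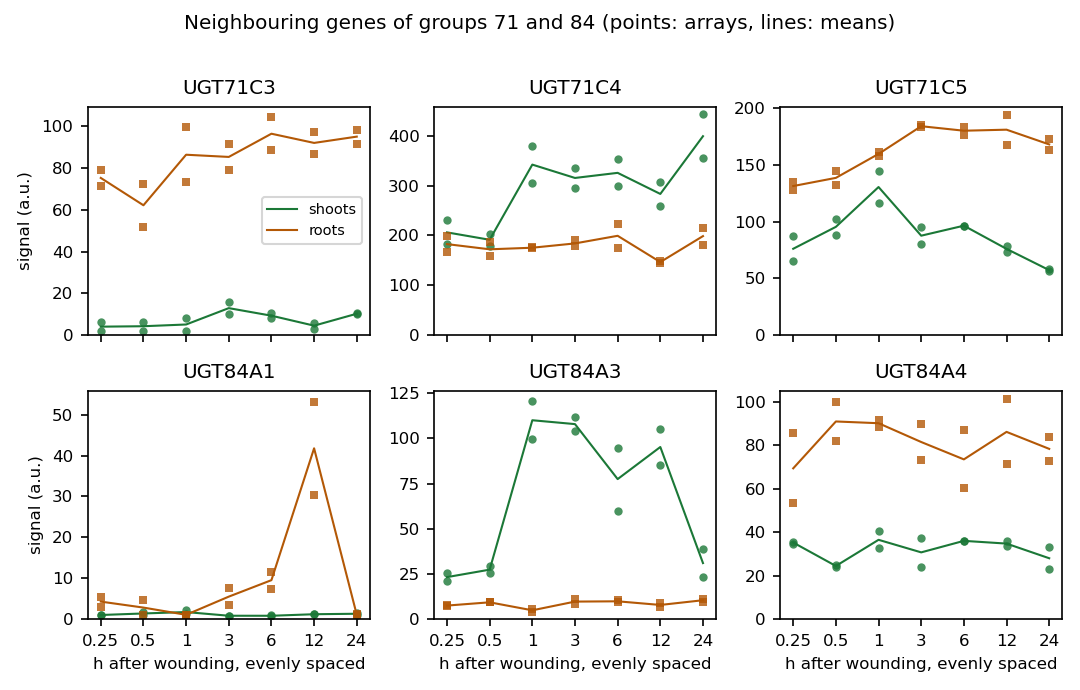
Deposited signal (arbitrary units) at 7 evenly spaced times for the neighbouring genes UGT71C3, UGT71C4 and UGT71C5 (top) and UGT84A1, UGT84A3 and UGT84A4 (bottom), with a point for each array and lines through means of 2 arrays. In shoots UGT84A3 lies at 59.99 to 120.5 from 1 to 12 h, and UGT84A1 leaves its low level on the 12 h root arrays, with 53.2 and 30.4.

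In group 85, whose members UGT85A7, UGT85A2, UGT85A5 and UGT85A3 form a cluster, UGT85A5 had the widest course. It gave 20.8 and 28.1 at 0.25 h, 22.1 and 22.5 at 0.5 h, 14.9 and 9.31 at 1 h, 61.1 and 68.0 at 3 h, 113 and 108 at 6 h, 45.4 and 61.3 at 12 h and 50.8 and 49.9 at 24 h in shoots. The 1 h arrays were the lowest and the 6 h arrays the highest. Against 24 h the changes were -0.80 ± 0.23 (SE, adjusted p = 0.0127), -0.89 ± 0.23 (SE, adjusted p = 0.00583) and -1.43 ± 0.23 (SE, adjusted p = 4.64e-05) at 0.25, 0.5 and 1 h and 0.99 ± 0.23 (SE, adjusted p = 0.00257) at 6 h, of opposite sign. The UGT85A5 call at 0.25 h was lost without replicate 1 at 0.25 h or replicate 1 at 24 h (adjusted p = 0.111 and 0.0691), and on the log2(signal + 1) scale (adjusted p = 0.147). The calls at 0.5 h and 6 h were lost on that scale too (adjusted p = 0.105 and 0.119). With 0.25 h in place of 24 h those at 0.5 and 1 h were lost (adjusted p = 0.925 and 0.0525). In roots UGT85A5 was below the 40th percentile at every time. At 6 h in shoots UGT85A2, UGT85A3 and UGT85A4 were called higher as well. UGT85A4 gave 38.6 and 50.5 at 6 h, against 24.4 and 19.1 at 24 h, and its change of 0.76 ± 0.17 (SE, adjusted p = 0.00202) held whichever array was left out. UGT85A2 gave 142 and 132 at 6 h, against 100.7 and 80.7 at 24 h. Its change of 0.55 ± 0.18 (SE, adjusted p = 0.0337) was lost without replicate 1 or 2 at 6 h or replicate 2 at 24 h (adjusted p = 0.160, 0.0812 and 0.213), and after quantile normalization (adjusted p = 0.0673). UGT85A3 gave 27.9 and 23.7 at 6 h and 27.8 and 29.2 at 12 h, against 12.8 and 18.5 at 24 h, and its changes were 0.47 ± 0.17 (SE, adjusted p = 0.0488) and 0.58 ± 0.17 (SE, adjusted p = 0.0190). The UGT85A3 call at 6 h was lost without replicate 1 or 2 at 6 h or replicate 1 at 24 h (adjusted p = 0.237, 0.0783 and 0.329), and after quantile normalization, on the log2(signal + 1) scale, with no filter, with the replicate block or with the arrays of the same tissue alone (adjusted p = 0.0663, 0.0666, 0.0567, 0.0556 and 0.0782). The UGT85A3 call at 12 h was lost without replicate 1 or 2 at 12 h or replicate 1 at 24 h (adjusted p = 0.0736, 0.0919 and 0.191). At 0.25 h UGT85A3 gave 28.6 and 21.8 in shoots. With 0.25 h in place of 24 h its calls at 6 and 12 h were lost (adjusted p = 0.923 and 0.615). UGT85A3 passed the filter only through shoots at 12 h, so the 12 h call followed in part from the filter. UGT85A7 passed the F-test over time in shoots (adjusted p = 0.0433) but was called at no time. That F-test held in 11 of 28 fits with an array left out and in 1 of 5 other settings with all the times kept. For UGT85A2 the F-test was lost without replicate 1 at 0.25 h or replicate 1 at 6 h (adjusted p = 0.0544 and 0.0578), and after quantile normalization (adjusted p = 0.0521).

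In roots 0 members were called at 0.25, 0.5 and 1 h in limma's test, beside 0.326%, 0.437% and 0.0553% of all probe sets. At an unadjusted p under 0.05 there were 4, 6 and 7 of 37 at these times, beside 8.37%, 7.93% and 9.09% of all probe sets. At 3 h 1 member was called lower, beside 0.400% of all probe sets called and 0.209% called lower. At 6 h it was 2, both lower, beside 1.21% called and 0.547% lower. At 12 h it was 3, UGT84A1 and UGT78D2 higher and UGT88A1 lower, beside 7.40% called (3.24% higher and 4.16% lower). Of these, UGT84A1 passed the filter only through roots at 12 h. UGT78D1 gave 16.1 and 17.3 at 3 h and 20.3 and 15.9 at 6 h, against 54.2 and 30.2 at 24 h. Both pairs lay below the 40th percentile and below both 24 h arrays, with changes of -0.91 ± 0.20 (SE, adjusted p = 0.0411) and -0.84 ± 0.20 (SE, adjusted p = 0.0336). The UGT78D1 call at 3 h was lost without replicate 1 or 2 at 3 h or replicate 1 at 24 h (adjusted p = 0.482, 0.174 and 0.278), and after quantile normalization, with no filter, with the replicate block or with the arrays of the same tissue alone (adjusted p = 0.0735, 0.0562, 0.0518 and 0.0794). The UGT78D1 call at 6 h was lost without replicate 1 or 2 at 6 h or replicate 1 at 24 h (adjusted p = 0.0783, 0.176 and 0.400), and after quantile normalization or with the arrays of the same tissue alone (adjusted p = 0.0561 and 0.0629). At 0.25 h UGT78D1 gave 20.5 and 20.6 in roots. With 0.25 h in place of 24 h both its calls were lost (adjusted p = 0.690 at 3 h and 0.825 at 6 h). UGT88A1 gave 25.8 and 29.2 at 12 h, against 70.5 and 92.9 at 24 h. Its 12 h arrays were the lowest of all 14 root arrays, and the change of -1.26 ± 0.21 (SE, adjusted p = 0.000555) held whichever array was left out. UGT73D1 passed the F-test over time (adjusted p = 0.0267) but was called at no time against 24 h. It gave 113 and 125 at 0.25 h, 203 and 164 at 0.5 h, 168 and 167 at 1 h, 175 and 145 at 3 h, 231 and 213 at 6 h, 79.9 and 100.3 at 12 h and 132 and 175 at 24 h. The 6 h arrays were the highest and the 12 h arrays the lowest. That call was lost without replicate 1 or 2 at 6 h (adjusted p = 0.0702 and 0.0529) and without replicate 1 or 2 at 12 h (adjusted p = 0.159 and 0.0658). On the log2(signal + 1) scale it was lost too (adjusted p = 0.712).

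Single arrays decided some of these root counts. Without replicate 1 at 0.25 h, or without replicate 2 at 24 h, 1 member was called at 0.25 h, and without replicate 1 at 24 h 1 was called at 0.5 h. The 3 h count was 0 without either 3 h array and 2 without replicate 2 at 24 h. At 6 h it was 0 without replicate 1 and 1 without replicate 2 of that time. With the mean of 3, 6 and 12 h in place of 24 h, 5, 4 and 3 members were called at 0.25, 0.5 and 1 h, and the F-test without the 24 h arrays was passed by 10 members. These counts were not taken over all probe sets.

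**Figure D5:**
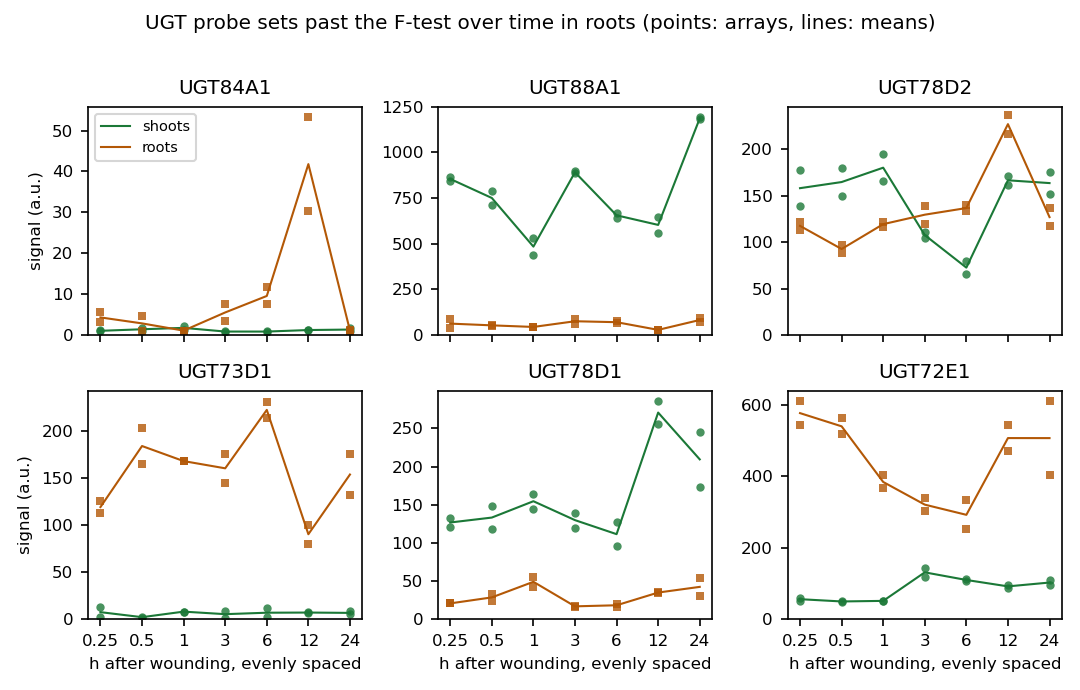
Deposited signal (arbitrary units) at 7 evenly spaced times for the 6 UGT probe sets past the F-test over time in roots, with a point for each array and lines through means of 2 arrays, in shoots (green) and roots (orange). UGT84A1 is highest at 12 h in roots, UGT88A1 lowest at 12 h in roots, and UGT78D2 is highest at 12 h in roots and lowest at 6 h in shoots.

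The course over time differed between shoots and roots for 22 of 37 members, against 42.3% of all probe sets, and for 15 of the 22 this held whichever of the 28 arrays was left out. Besides UGT72E1, the smallest p-values were those of UGT84A3 (adjusted p = 1.28e-06), UGT78D2 (adjusted p = 5.38e-06), UGT74D1 (adjusted p = 1.11e-05) and UGT84A1 (adjusted p = 4.47e-05). UGT84A3 and UGT76E11 were below the 40th percentile in every root group and UGT84A1 in every shoot group. The size of their differences thus depends on the offset. By group number 5 of 6 members of group 76 and 4 of 6 of group 71 differed, and 1 of 5 of group 85, counts too small to set the groups against each other. The shoot change minus the root change was 1.12 ± 0.18 (SE, adjusted p = 0.000186) for UGT71C5 at 1 h. For UGT71B1 that difference was 1.38 ± 0.32 (SE, adjusted p = 0.00581) at 12 h, for UGT80B1 0.73 ± 0.19 (SE, adjusted p = 0.0110) at 6 h and for UGT76E11 -1.87 ± 0.34 (SE, adjusted p = 0.000713) at 0.5 h. UGT88A1, which fell at 12 h in both tissues, did not pass this test (adjusted p = 0.112).

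Few genes of the pathways around the UGTs could be named. Over all probe sets, 14.4% were lower in shoots at 0.25 h, 14.9% at 0.5 h and 18.4% at 1 h, and at 3, 6 and 12 h 10.2%, 10.0% and 9.40%. The shares that were higher ran from 9.94% at 0.25 h to 14.5% at 1 h. With at most 12 genes tested per list, the counts below are descriptions. Of 48 glutathione transferases, which also conjugate foreign compounds, 12 were tested. In shoots 4 were lower and none higher at 0.25 h and at 0.5 h, 3 lower at 1 h, 3 lower and 1 higher at 3 h, 3 lower at 6 h and 1 lower at 12 h. Their median change was -0.22 at 0.25 h and -0.16 at 0.5 h, beside -0.09 and -0.07 over all probe sets. GSTU27 gave 91.9 ± 15.3 in shoots at 1 h, against 249 ± 14.05 at 24 h (SD, n = 2 each), with a log2 difference of -1.35 ± 0.17 (SE, adjusted p = 3.49e-06). Of 35 other genes of hormone conjugation and turnover 4 were tested, and in shoots 1 was higher at 0.25 h, 2 higher and 1 lower at 1 h, 2 higher at 3 h and 2 lower at 12 h. GH3.3, which joins auxin to amino acids, gave 171 ± 70.2 in shoots at 1 h, against 33.2 ± 1.55 at 24 h. Its log2 difference was 1.99 ± 0.28 (SE, adjusted p = 1.52e-05). BSMT1, which methylates salicylate and benzoate, gave 48.3 ± 7.78 at 1 h, against 4.101 ± 3.62 at 24 h, with a log2 difference of 2.01 ± 0.33 (SE, adjusted p = 5.74e-05). Of 18 phenylpropanoid and monolignol genes 2 were tested, and in shoots 1 was lower at each of 0.25, 3, 6 and 12 h and 1 higher at 1 h. HCT, an acyltransferase of the route to monolignols, gave 461 ± 13.0 in shoots at 6 h, against 1144 ± 111 at 24 h, with a log2 difference of -1.29 ± 0.18 (SE, adjusted p = 8.15e-06). DFR, of anthocyanin synthesis and the only one of 17 flavonoid genes tested, gave 25.9 ± 5.16 in shoots at 6 h, against 69.8 ± 3.04 at 24 h. Its log2 difference was -1.14 ± 0.29 (SE, adjusted p = 0.00598). BCAT4, the only one of 23 glucosinolate genes tested, gave 678 ± 53.4 in shoots at 0.5 h, against 1354 ± 308 at 24 h, with a log2 difference of -0.97 ± 0.19 (SE, adjusted p = 0.000700). Of 15 detoxification genes 3 were tested, and in shoots 2 were lower at 0.25 h and at 0.5 h, 2 lower and 1 higher at 1 h and 2 higher at 12 h. AER, a reductase of reactive alkenals, gave 492 ± 142 in shoots at 12 h, against 215 ± 86.1 at 24 h, with a log2 difference of 1.18 ± 0.32 (SE, adjusted p = 0.0131). Leaving out arrays was not run for the genes of these lists.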

How the data were processed

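Total RNA of 28 samples was measured on the ATH1 array. The deposited table gives an intensity for each probe set on each array. The submitters' processing notes name MAS5 as the tool, without a version, and replicates were not pooled. The mean without the top and bottom 2% was 100.007 to 100.01 on every array, so the arrays had been scaled to a common level before deposition. The number of arrays, 2 per group, limits the precision.

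From these values log2(signal + 10.7) was computed, 10.7 being the 25th percentile of all signals. The 64 control probe sets were left out, and 16261 probe sets above the 40th percentile on both arrays of at least 1 group were kept. limma 3.58.1 in R 4.3.3 fitted 1 mean per tissue and time (14 residual degrees of freedom, moderated with trend and robust settings), after a test on simulated data. Contrasts were each time against 24 h, all times together (F-test), the difference of courses between tissues, and the mean of shoots against roots, with Benjamini-Hochberg adjustment over all 16261. All 45 members were matched to RefSeq (TAIR10.1) by gene identifier, and their sequences were not used here. Other settings tried were log2(signal + 1), quantile normalization, a replicate block, no filter, arrays of the same tissue alone, 0.25 h or (added after seeing the data) the mean of 3, 6 and 12 h in place of 24 h, no 24 h arrays, and each array left out in turn.

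The members and gene lists were chosen with earlier results of these data known. Any member could be named. Values array by array were given for the 8 widest courses past the F-test in each tissue, up to 3 largest rises and 3 largest falls among the members called at each time, the 5 largest tissue differences each way, the 5 smallest p-values of the difference of courses, and the widest range in each UGT group. Of each list, up to 3 largest called rises and falls could be named per contrast. A chitinase that shares the symbol CHI with a flavonoid enzyme was not counted in the flavonoid list.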

Additional observations from a re-analysis of the deposited data

Results flagged for a closer look

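The time course differed between shoots and roots, by the F-test of the difference itself in limma's fit, for 22 UGT probe sets. Of these, 15 held whichever of the 28 arrays was left out. They were UGT72E1 (adjusted p = 6.13e-07), UGT84A3 (1.28e-06), UGT78D2 (5.38e-06), UGT74D1 (1.11e-05), UGT84A1 (4.47e-05), UGT85A5 (9.24e-05), UGT72B3 (0.000123), UGT80B1 (0.000134), UGT76E11 (0.000236), UGT76B1 (0.000534), UGT71C5 (0.000644), UGT76C2 (0.002), UGT71B1 (0.00218), UGT71C4 (0.0109) and UGT87A2 (0.0154). On the log2(signal + 1) scale UGT76E11 was lost (adjusted p = 0.0825). UGT84A1 passed the filter only through roots at 12 h. UGT84A3, UGT85A5, UGT72B3 and UGT76E11 were below the 40th percentile in every root group and passed it only through shoots. The size of the differences of these genes depends on the offset. The fits with an array left out used the same filter and do not test this.

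The other 7 were lost without at least 1 array. UGT76E12 (adjusted p = 0.0131) held in 27 of 28 such fits and was lost without replicate 1 of the roots at 1 h (adjusted p = 0.0512). UGT73C1 (0.0306) held in 23 and UGT73D1 (0.0308) in 21. UGT78D1 (0.0442) held in 13, UGT73B4 (0.0407) and UGT76C1 (0.0432) in 8 each and UGT71C1 (0.0494) in 5. Of these 7, UGT76E12 and UGT73C1 were below the 40th percentile in every root group and UGT71C1 and UGT73D1 in every shoot group. On the log2(signal + 1) scale UGT76E12, UGT73C1 and UGT73D1 were lost (adjusted p = 0.127, 0.128 and 0.284), as was UGT73B4 with the replicate block (0.0544). Of 4 settings (quantile normalization, log2(signal + 1), no filter, replicate block) UGT78D1 and UGT71C1 held in 1 each and UGT76C1 in 0. Without the 24 h arrays UGT71C1 was lost too (adjusted p = 0.140).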

How the results depend on the processing

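Leaving out each array in turn gave, in shoots, 5 to 10 members called at 0.25 h, 7 to 9 at 0.5 h, 9 to 11 at 1 h, 3 to 5 at 3 h, 8 to 13 at 6 h and 8 to 12 at 12 h. In roots it gave 0 to 1 at 0.25 h and at 0.5 h, 0 at 1 h, 0 to 2 at 3 h and at 6 h, and 3 to 4 at 12 h. The F-tests gave 26 to 28 members in shoots, 5 to 9 in roots and 16 to 24 for the difference of courses, and 33 to 34 members differed between the tissues. On the log2(signal + 1) scale 5 members were called in shoots at 0.25 h. With 0.25 h in place of 24 h, the counts were 0 in shoots at 0.5 h (5 at an unadjusted p under 0.05), 12 in shoots at 3 h and 1 in roots at 1 h. Set against the mean of 3, 6 and 12 h, an alternative added once the data had been seen, they were 16 and 19 in shoots at 0.25 and 0.5 h, and 5, 4 and 3 in roots at 0.25, 0.5 and 1 h. With the arrays of the same tissue alone they were 9 in shoots at 12 h and, in roots, 0 at 3 h, 0 at 6 h and 5 at 12 h, and without the 24 h arrays 10 members passed the F-test in roots. Quantile normalization gave 0 in roots at 3 h and 1 at 6 h and moved the median tissue difference of all probe sets to -0.16, against -0.27 without it. With no filter 0 were called in roots at 3 h. The same 0 came from the fit with the replicate block, with 4 members at an unadjusted p under 0.05 in each of these 3 fits. Same-numbered arrays did not deviate together: over 91 pairs of groups the correlation lay between -0.277 and 0.190 with a median of -0.014, so the numbers were not taken as pairs, and of 160 results for single members the block kept 155 past the threshold. In 9 results the direction turned. With 0.25 h in place of 24 h in shoots, the log2 change was 0.0600 for UGT78D1 and 0.0645 for UGT72B3 at 0.5 h, 0.0299 for UGT78D1 at 3 h, 0.0435, 0.00687 and 0.0487 for UGT71C1 at 1, 6 and 12 h, and 0.44 for UGT71C4 at 12 h. Of these UGT71C4 alone passed the threshold (adjusted p = 0.0398). With the mean of 3, 6 and 12 h it was 0.0734 for UGT74D1 at 0.25 h and 0.0858 for UGT88A1 at 0.5 h. In all, 3331 of 3647 alternative values for single members kept direction and call. The causes of these shifts were not tested, and for signals under the 40th percentile the size of a change depends on the offset. The member counts in these other settings were not set beside counts over all probe sets.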
